A study of Mus musculus with 20 samples.

Results

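The E2F transcription factors and the pocket proteins that hold them were followed across the macrophage transcriptomes of this study. The 10 genes, E2f1 to E2f8, Rb1 and Rbl1, were taken by gene name from both gene count tables, each of which lists 56748 genes, and all 10 passed the filter of at least 10 counts in total in both tables. The study asks how nitric oxide made by inducible nitric oxide synthase (iNOS, encoded by Nos2), and the reductase AKR1A1, alter macrophages activated with lipopolysaccharide (LPS) and interferon gamma (IFNγ). RNA from 20 libraries was sequenced. In the iNOS experiment, 12 libraries were labelled as bone marrow-derived macrophages (BMDMs) grown in 20 ng/mL M-CSF from mice of 6 to 12 weeks, either wildtype C57BL/6J or iNOS knockout (KO), left unstimulated or stimulated for 48 h with LPS at 50 ng/mL plus IFNγ at 30 ng/mL, with 3 libraries per group. In the Akr1a1 experiment, 8 libraries came from RAW264.7 cells, a mouse macrophage-like line, either wildtype or labelled as Akr1a1 KO, left unstimulated or stimulated for 48 h with LPS at 50 ng/mL plus IFNγ at 10 ng/mL, with 2 libraries per group.

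The marrow was pooled by genotype and the Akr1a1 KO cells are single-cell clones made with Cas9 ribonucleoprotein, so the p-values measure the spread between these libraries, which may be in part technical. The study's methods describe the RNA of the iNOS experiment as coming from RAW264.7 cells, whereas the labels name BMDMs, and the groups are called BMDM here as the labels do. The paper also states that nitric oxide inhibits proliferation of stimulated RAW264.7 cells, while its BMDMs do not divide in either genotype, stimulated or not. Cenpf, a kinetochore gene, was at 85.1 CPM in unstimulated wildtype libraries labelled BMDM. Which cells gave this RNA was not tested, so results given for BMDMs hold for libraries with that label. Total counts ran from 15072109 to 18878107 in the BMDM libraries and from 11876719 to 44583327 in the RAW264.7 libraries. Nos2 was at 10370 to 11530 CPM (counts scaled to a common library size by the trimmed mean of M-values) in stimulated wildtype BMDMs, at 871 to 912 CPM in stimulated iNOS KO BMDMs, and at 0 in the 3 unstimulated iNOS KO libraries. Akr1a1 in the libraries labelled Akr1a1 KO lay at 206 and 21.9 CPM unstimulated and at 370 and 212 CPM stimulated, below the wildtype 427 and 488 CPM and 576 and 675 CPM, but neither difference passed the test (adjusted p = 0.56 and 0.643). The titles of both unstimulated RAW264.7 libraries of replicate B name stimulated cells while their treatment field says unstimulated. On the first principal component they lay at -69.8 and -67.5, beside the other unstimulated libraries at -72.6 and -63.1 and apart from the stimulated ones at 60.6 to 74. All 8 macrophage markers examined reached 1 CPM in at least 1 BMDM library, and 7 of 8 did in the RAW264.7 libraries. The exception was Mertk, a phagocytosis receptor, which averaged 0.19 and 0.0332 CPM in unstimulated wildtype and iNOS KO BMDMs, 5.91 and 0.907 CPM after stimulation, and at most 0.0686 CPM in any RAW264.7 group.

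E2F factors bind DNA at the promoters of genes for DNA replication and mitosis, most of them as dimers with a DP protein encoded by Tfdp1 or Tfdp2. E2F1, E2F2 and E2F3 are best known as activators, E2F4 and E2F5 as partners of pocket proteins in repression, E2F6 as a repressor that works with a Polycomb complex without pocket proteins, and E2F7 and E2F8 as atypical repressors that bind DNA without a DP partner. The pocket proteins RB (Rb1), p107 (Rbl1) and p130 (Rbl2) hold E2F factors inactive until cyclin-dependent kinases phosphorylate them. M-CSF drives macrophage precursors through the cell cycle, and activation with LPS and IFNγ is known to stop that division.

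Several of these genes are themselves textbook E2F targets, so the sequences just upstream of the start sites of E2f3, E2f7, E2f8 and Rbl1 are shown first. These promoters carry a searched motif. E2f7 and E2f8 differed most by genotype, while E2f3 and Rbl1 stand for the activators and the pocket proteins. E2f2, which differed more by genotype than E2f3, also carried motifs and is described below without its sequence. The 250 bases before each start site are given from RefSeq on build GRCm38.p6, 5′ to 3′ on the strand of the gene, with capitals marking an E2F motif or a cell cycle homology region (CHR) motif on either strand.
E2f3, chr13:29986064-29986313, minus strand: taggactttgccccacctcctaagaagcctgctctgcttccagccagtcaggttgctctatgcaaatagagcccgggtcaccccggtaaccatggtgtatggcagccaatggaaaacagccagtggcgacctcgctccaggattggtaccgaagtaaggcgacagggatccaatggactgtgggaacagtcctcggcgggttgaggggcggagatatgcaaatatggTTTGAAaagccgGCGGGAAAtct
E2f7, chr10:110745189-110745438, plus strand: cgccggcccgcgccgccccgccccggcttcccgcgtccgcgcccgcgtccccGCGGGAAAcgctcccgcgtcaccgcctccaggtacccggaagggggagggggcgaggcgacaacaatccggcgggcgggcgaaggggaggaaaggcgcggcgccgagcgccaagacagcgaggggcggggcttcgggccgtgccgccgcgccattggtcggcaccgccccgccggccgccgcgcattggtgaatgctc
E2f8, chr7:48881597-48881846, minus strand: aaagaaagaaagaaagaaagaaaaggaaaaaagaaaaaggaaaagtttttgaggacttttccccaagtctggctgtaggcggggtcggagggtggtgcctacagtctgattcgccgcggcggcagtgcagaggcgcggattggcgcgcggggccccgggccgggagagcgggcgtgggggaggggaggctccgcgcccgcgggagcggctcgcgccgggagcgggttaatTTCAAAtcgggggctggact
Rbl1, chr2:157204535-157204784, minus strand: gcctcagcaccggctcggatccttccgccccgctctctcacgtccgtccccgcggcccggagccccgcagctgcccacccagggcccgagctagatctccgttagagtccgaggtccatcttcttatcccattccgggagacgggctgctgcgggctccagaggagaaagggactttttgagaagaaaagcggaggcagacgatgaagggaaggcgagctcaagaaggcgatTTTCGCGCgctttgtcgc

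The E2F motifs searched were TTTCCCGC, TTTCGCGC, TTTGCCGC and TTTGGCGC, and the CHR motifs were TTTGAA and TTCGAA. The first of 2 E2f3 promoters, shown here, carried both kinds close to its start and the second none of those searched. E2f7 carried an E2F motif far upstream, E2f8 a CHR motif alone, and Rbl1 an E2F motif alone. Over windows of 300 bases, from 250 before to 50 after the start, 7 of the 10 genes had 9 promoters in the reference table, and 4 of these 9 (44.4%) held an E2F motif against 2.26% of 32851 promoters of all genes. A CHR motif was in 3 of 9 (33.3%) against 19.2% of all promoters. E2f2 held TTTGGCGC 40 bases after the start of its first promoter and TTTGAA 31 bases before that of its second, and none of these motifs was in the E2f6 window. The only E2f1 window in the table lay inside both coding transcripts that GENCODE vM21 gives for the gene, so it does not show the sequence before their starts. The second E2f2 window likewise lay inside the only coding transcript given for E2f2, and its CHR motif is among the 3 counted above. A match in these letters describes the sequence and is no measure of binding.

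In wildtype BMDMs, 48 h of LPS and IFNγ lowered 8 of the 10 genes and raised 2, E2f5 and Rb1. This was counted with the edgeR quasi-likelihood test at a Benjamini-Hochberg adjusted p below 0.05, under which 28.5% of the 18691 genes tested fell and 32.4% rose. The median log2 fold change of the 10 genes was -1.47, beside 0.07 for all genes tested. In iNOS KO BMDMs 6 fell, 1 rose and 3 did not pass, where 24.6% of all genes fell and 27.3% rose, and the median of the 10 was -0.53, beside 0.00 for all genes. Fewer dividing cells and less of each RNA per cell cannot be told apart in these bulk libraries.

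**Figure D1:**
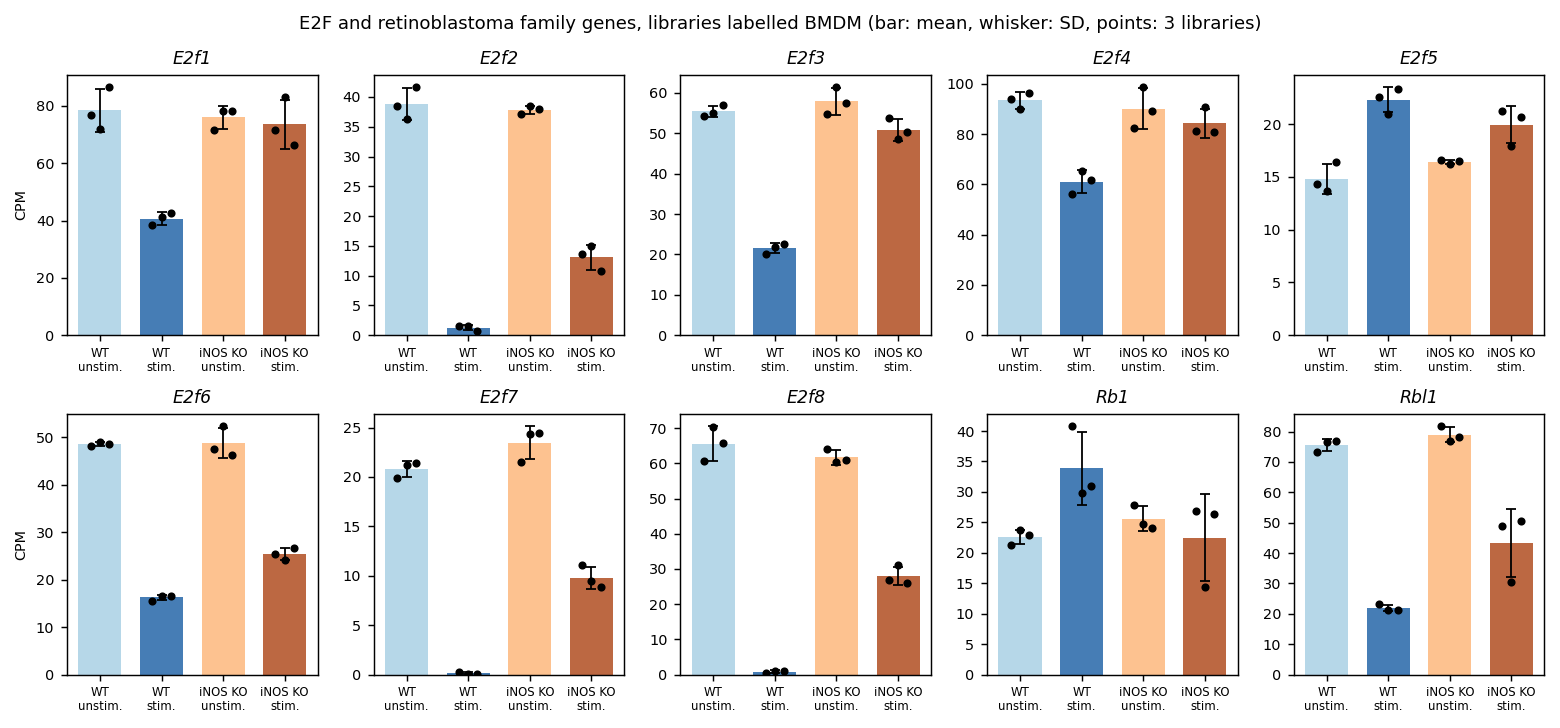
CPM of the 10 genes in the 12 libraries labelled BMDM (vertical axes, from 0, each on its own scale). Bars are means, whiskers the SD and points the 3 libraries of each group; E2f2, E2f7 and E2f8 were near 0 only in stimulated wildtype cells, while stimulated iNOS KO cells kept means of 13.1, 9.8 and 28 CPM.

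Between unstimulated iNOS KO and wildtype BMDMs, 0 of the 10 genes passed the edgeR test, where 5.98% of all genes passed in either direction. A count of 0 of 10 lies near that share. An unadjusted p below 0.05 was reached by 0 of the 10, and 0 passed with DESeq2. For E2f7, Rb1 and Rbl1 the iNOS KO libraries all lay above the wildtype ones, and for the other genes they overlapped. The share of all genes separated in this way was not counted. The log2 differences lay between -0.09 and 0.18, and their 95% intervals reached from -0.29 at the lowest to 0.54 at the highest. Once stimulated, 8 of the 10 genes stood higher in iNOS KO cells than in wildtype ones (24.2% of all genes were higher), Rb1 was lower (24.2% were lower), and E2f5 did not pass. When a log2 change beyond 1 was required as well, 4 of the 10 passed (E2f2, E2f3, E2f7 and E2f8), against 19.6% of all genes in either direction. The test of the difference itself, the interaction of genotype and stimulation, passed for 9 of the 10 genes, 8 of them positive, meaning a stimulated level relatively higher without iNOS (20.0% of all genes), and Rb1 negative (15.4%).

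**Figure D2:**
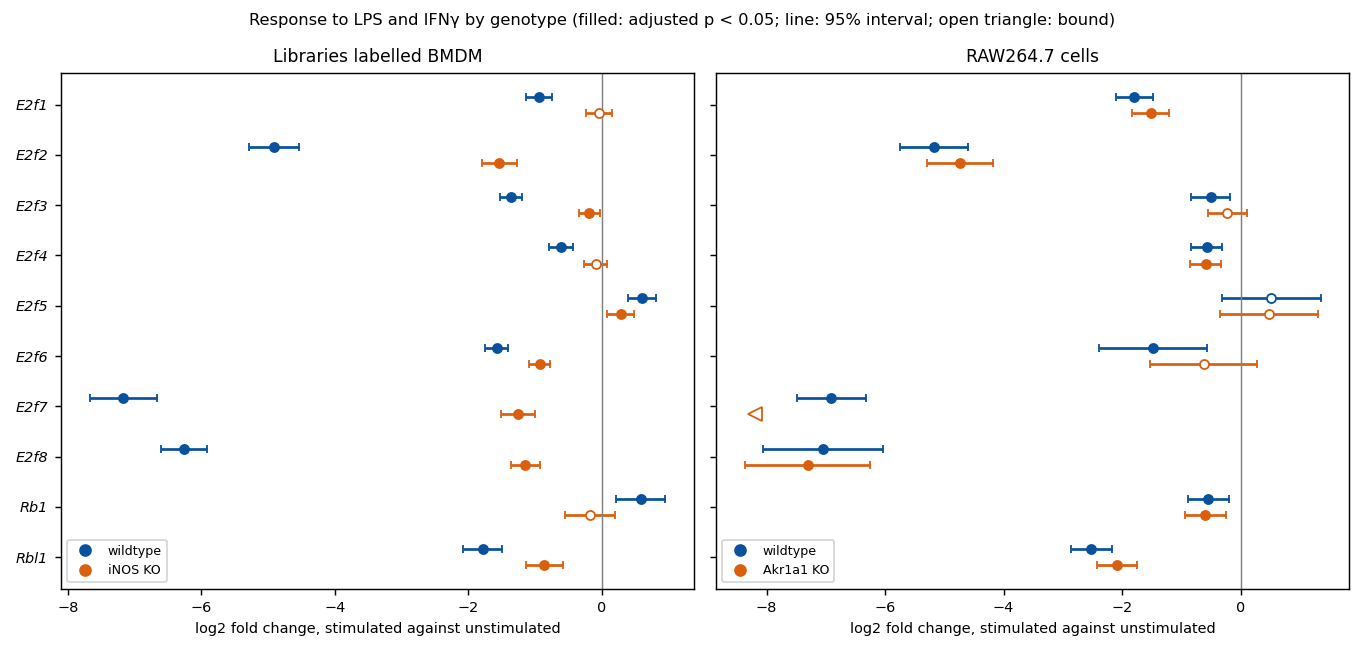
Log2 fold change of stimulated against unstimulated cells for each gene (horizontal axis), by genotype, in BMDM (left) and RAW264.7 (right) libraries. Lines are 95% intervals, filled points have an adjusted p below 0.05, and the open triangle is the bound for E2f7 at 0 counts; in BMDMs the iNOS KO points of E2f2, E2f7 and E2f8 (-1.54, -1.26 and -1.15) stand far to the right of the wildtype ones (-4.91, -7.17 and -6.26).

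E2f1 (ENSMUSG00000027490, listed at chromosome 2, 154401327 to 154411812, minus strand), the founding activator, was at 76.9, 71.9 and 86.6 CPM in unstimulated and 38.4, 41.1 and 42.6 CPM in stimulated wildtype BMDMs. Without iNOS it was at 71.5, 78.2 and 78.1 CPM unstimulated and 71.4, 83.1 and 66.2 CPM stimulated. The 3 stimulated wildtype libraries thus lay below all 9 others, which overlapped one another. Stimulation took E2f1 to 51.9% of its level in wildtype cells (95% interval 45.3 to 59.5, edgeR adjusted p = 1.11e-07) and to 96.8% in iNOS KO cells (84.8 to 111, adjusted p = 0.698). The interaction was 0.90 ± 0.129 (log2 ± SE, adjusted p = 3.23e-05).

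E2f2 (ENSMUSG00000018983, chromosome 4, 135899705 to 135923368, plus strand), an activator expressed in dividing blood cells, was at 38.5, 36.2 and 41.7 CPM in unstimulated wildtype cells and at 1.52, 1.55 and 0.763 CPM after stimulation. In iNOS KO cells it went from 37.1, 38.5 and 37.9 CPM to 13.6, 14.9 and 10.7 CPM. The 3 levels were therefore ordered without overlap, with stimulated wildtype lowest, stimulated iNOS KO between, and both unstimulated groups together at the top. E2f2 was left at 3.32% of its unstimulated level with iNOS (2.57 to 4.3) and at 34.5% without it (28.7 to 41.4), with an interaction of 3.38 ± 0.227 (adjusted p = 4.69e-09).

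E2f3 (ENSMUSG00000016477, chromosome 13, 30090558 to 30170046, minus strand), which yields an activating and a shorter repressive protein from 2 promoters, was at 54.3, 55 and 56.9 CPM in unstimulated and 20.2, 21.9 and 22.7 CPM in stimulated wildtype cells. It was at 54.7, 61.5 and 57.5 CPM in unstimulated and 53.8, 48.5 and 50.2 CPM in stimulated iNOS KO cells. Stimulated wildtype stood apart below the other 9 libraries, and the stimulated iNOS KO libraries lay just below their unstimulated counterparts. The fall in wildtype cells was to 39% (adjusted p = 1.02e-10). The small fall in iNOS KO cells, to 87.8% (adjusted p = 0.0431), passed in only 4 of the 12 fits that each left out 1 library. Its adjusted p lay close to the threshold and missed it with the replicate letter as a block (0.0617) or with no filter on counts (0.127), while the log2 value was -0.19 in all 3 fits. The interaction was 1.17 ± 0.107 (adjusted p = 2.04e-07). Gene counts do not separate the 2 E2f3 transcripts.

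E2f4 (ENSMUSG00000014859, chromosome 8, 106024295 to 106032002, plus strand), the most abundant E2F of quiescent cells, was at 94, 89.8 and 96.4 CPM in unstimulated and 56.2, 65.4 and 61.6 CPM in stimulated wildtype BMDMs. In iNOS KO cells it stayed between 80.7 and 98.7 CPM in all 6 libraries, with the stimulated and unstimulated ones overlapping. It fell to 65.4% in wildtype cells (adjusted p = 5.36e-06), and was at 93.5% in stimulated iNOS KO cells (83 to 105, adjusted p = 0.344). The interaction of 0.52 ± 0.116 (adjusted p = 0.00202) was the smallest of those that passed.

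E2f5 (ENSMUSG00000027552, chromosome 3, 14643701 to 14671369, plus strand), a partner of p130 in resting cells, was the only E2F that rose. It went from 14.3, 13.6 and 16.4 CPM to 22.6, 21 and 23.4 CPM in wildtype cells while without iNOS it went from 16.6, 16.2 and 16.5 CPM to 21.2, 18 and 20.7 CPM. The stimulated libraries lay above the unstimulated ones in both genotypes, and the stimulated genotypes overlapped. The rise was 1.51-fold in wildtype cells (adjusted p = 4.74e-05) and 1.22-fold in iNOS KO cells (adjusted p = 0.0215, passing in 7 of the 12 fits without 1 library). Stimulated iNOS KO cells were at 89.6% of stimulated wildtype cells (77.7 to 103, adjusted p = 0.194), and the interaction, -0.31 ± 0.137, did not pass (adjusted p = 0.0901), although it did with edgeR's own filter on low counts (adjusted p = 0.0388) or without wildtype unstimulated replicate C (adjusted p = 0.0455). The table's coordinates of E2f5 overlap the opposite-strand gene Rbis by 26 bases, and with no strand setting stated for the counting, reads from that overlap cannot be told apart.

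E2f6 (ENSMUSG00000057469, chromosome 12, 16860964 to 16889743, plus strand), the Polycomb-linked repressor, was at 48.1, 48.9 and 48.5 CPM in unstimulated and 15.6, 16.6 and 16.6 CPM in stimulated wildtype cells. The iNOS KO libraries fell from 47.4, 52.3 and 46.4 CPM to 25.5, 24.2 and 26.7 CPM. It thus fell in both genotypes, to 33.5% with iNOS and to 52.3% without, with no overlap between stimulated wildtype, stimulated iNOS KO and unstimulated libraries. The interaction was 0.64 ± 0.11 (adjusted p = 0.00019).

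In wildtype cells the atypical repressors fell furthest of the 10 genes, whereas in iNOS KO cells less of E2f2 was left than of either. E2f7 (ENSMUSG00000020185, chromosome 10, 110581300 to 110623245, plus strand) was at 19.8, 21.2 and 21.4 CPM in unstimulated wildtype cells and at 0.277, 0.0675 and 0.0693 CPM, which are 4, 1 and 1 counts, after stimulation. The iNOS KO libraries went from 21.5, 24.4 and 24.5 CPM to 11.1, 9.45 and 8.89 CPM. The stimulated wildtype libraries were close to none and the stimulated iNOS KO libraries kept a level that no wildtype stimulated library approached. The fitted levels after stimulation were 0.695% of unstimulated in wildtype (0.489 to 0.987, adjusted p = 6.93e-14) and 41.8% in iNOS KO cells (35.1 to 49.7, adjusted p = 1.09e-07). Stimulated iNOS KO cells were 67.8-fold above stimulated wildtype cells (log2 6.08 ± 0.267, adjusted p = 9.57e-12). With so few counts these sizes lean on replicate A of stimulated wildtype, which holds 4 of the 6 counts: without it the log2 values were -8.11 for the wildtype fall, 7.02 between the stimulated genotypes and 6.85 for the interaction, which was 5.91 ± 0.31 with all libraries.

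E2f8 (ENSMUSG00000046179, chromosome 7, 48516177 to 48531344, minus strand), which pairs with itself or with E2F7 on DNA, was at 60.6, 70.4 and 65.9 CPM in unstimulated wildtype cells and at 0.485, 1.15 and 0.901 CPM after stimulation. In iNOS KO cells it went from 64.2, 60.3 and 60.8 CPM to 26.7, 31 and 26.1 CPM. As for E2f7, the stimulated genotypes were separated by far more than their spread. Stimulation left 1.3% of the E2f8 level with iNOS (1.03 to 1.65) and 45.2% without it (39 to 52.4), and the interaction of 5.12 ± 0.202 had the smallest adjusted p of the 10 genes (5.96e-12).

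Rb1 (ENSMUSG00000022105, chromosome 14, 73421113 to 73563262, minus strand), the retinoblastoma tumour suppressor, went the other way in wildtype cells. It was at 21.3, 23.7 and 22.9 CPM unstimulated and at 40.8, 29.8 and 31 CPM stimulated, a rise of 1.5-fold (log2 0.58 ± 0.174, adjusted p = 0.00834). In iNOS KO cells it was at 27.9, 24.7 and 24.1 CPM unstimulated and 26.8, 14.4 and 26.4 CPM stimulated, and did not pass (log2 -0.18, 95% interval -0.55 to 0.19, adjusted p = 0.423). All stimulated wildtype libraries lay above all other libraries, with replicate A the highest, and replicate B of stimulated iNOS KO was the lowest of the 12. The calls depend on replicate A of stimulated wildtype and on the samples in the fit. Without that library the wildtype rise was 0.43 (adjusted p = 0.0644), the difference between the stimulated genotypes was -0.43 (adjusted p = 0.0806, against -0.58 and 0.0114 with all libraries) and the interaction was -0.60 (adjusted p = 0.0828, against -0.76 and 0.0239). When only the 6 stimulated libraries were fitted, the genotypes differed by -0.51 (adjusted p = 0.0902). The interaction was also lost without wildtype unstimulated replicate A (adjusted p = 0.0592) or iNOS KO unstimulated replicate A (adjusted p = 0.0632). Rb1 spans Rcbtb2 and Lpar6 on the opposite strand, which had 231 to 492 and 9 to 88 counts in these libraries, so shared reads cannot be told apart without a stated strand setting.

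Rbl1 (ENSMUSG00000027641, chromosome 2, 156987813 to 157046454, minus strand), encoding p107, the pocket protein of dividing cells, was at 73.2, 76.5 and 76.9 CPM in unstimulated and 23.1, 21.3 and 21.2 CPM in stimulated wildtype cells. Its iNOS KO values went from 81.8, 77 and 78.1 CPM to 49, 30.4 and 50.6 CPM. The 3 stimulated iNOS KO libraries lay between the other groups, again with replicate B lowest. Rbl1 fell to 29% with iNOS (adjusted p = 4.47e-09) and to 55% without (adjusted p = 2.76e-05), with an interaction of 0.92 ± 0.187 (adjusted p = 0.000867). Rbl2, which encodes p130 of resting cells and is no member of the 10, fell in both genotypes. It was at 26.1 and 20.4 CPM on average before and after stimulation in wildtype cells, and at 24.7 and 15.4 CPM in iNOS KO cells. After stimulation Rbl2 was lower without iNOS than with it (log2 -0.41, adjusted p = 0.00177), the direction opposite to Rbl1. Its interaction of -0.33 did not pass. Rbl2 overlaps Aktip on the opposite strand by 12061 bases. Aktip had 178 to 421 counts in these libraries, so shared reads cannot be told apart without a stated strand setting.

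Levels of different genes were compared as CPM per kilobase of the gene length in the tables. In unstimulated wildtype BMDMs E2f4 was highest with 38.1 ± 1.36 CPM per kilobase (SD, n = 3), then E2f1 with 24.9, Rbl1 with 12.6, E2f8 with 12.1, E2f3 with 10.2, E2f6 with 8.57, E2f5 with 8.29, E2f2 with 7.95, Rb1 with 3.76 and E2f7 with 2.31. The ranges of Rbl1 and E2f8 overlapped, as did those of E2f6, E2f5 and E2f2, while the other neighbours in this order did not. In stimulated wildtype cells the order became E2f4 with 24.9, E2f1 with 12.9, E2f5 with 12.5, Rb1 with 5.63, E2f3 with 3.98, Rbl1 with 3.65, E2f6 with 2.87, E2f2 with 0.262, E2f8 with 0.155 and E2f7 with 0.0153, and the ranges overlapped between E2f1 and E2f5, between E2f3 and Rbl1 and between E2f2 and E2f8. In stimulated iNOS KO cells E2f4 with 34.4 and E2f1 with 23.3 kept the 2 top places, and E2f8 with 5.14 stood above E2f6 with 4.49, Rb1 with 3.74, E2f2 with 2.68 and E2f7 with 1.09, where the range of Rb1 overlapped both its neighbours.

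The summed level of the 8 E2F genes was 112 CPM per kilobase in unstimulated and 57.6 in stimulated wildtype BMDMs, and 111 and 91.7 in iNOS KO BMDMs. The activators E2f1 to E2f3 made up 38.3% ± 1.1 (SD, n = 3) of that sum in unstimulated wildtype cells and 29.8% ± 0.335 after stimulation. E2f4 to E2f6 made up 48.9% ± 0.662 before and 70% ± 0.322 after. E2f7 and E2f8 made up 12.8% ± 1.11 before and 0.294% ± 0.0755 after. Among single genes in stimulated wildtype cells, E2f4 took 43.2%, E2f1 22.4% and E2f5 21.8%, the latter 2 with overlapping ranges. Before stimulation these shares were 33.9%, 22.1% and 7.36%, so the shares of E2f4 and E2f5 grew while that of E2f1 hardly moved. In iNOS KO cells the 3 shares were 38.3%, 49.1% and 12.6% before and 38.5% ± 1.34, 54.7% ± 1.52 and 6.78% ± 0.19 after stimulation, so the activator share overlapped between stimulated and unstimulated iNOS KO libraries. Shares of 1 sum are bound to each other, and they carry no test here.

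**Figure D3:**
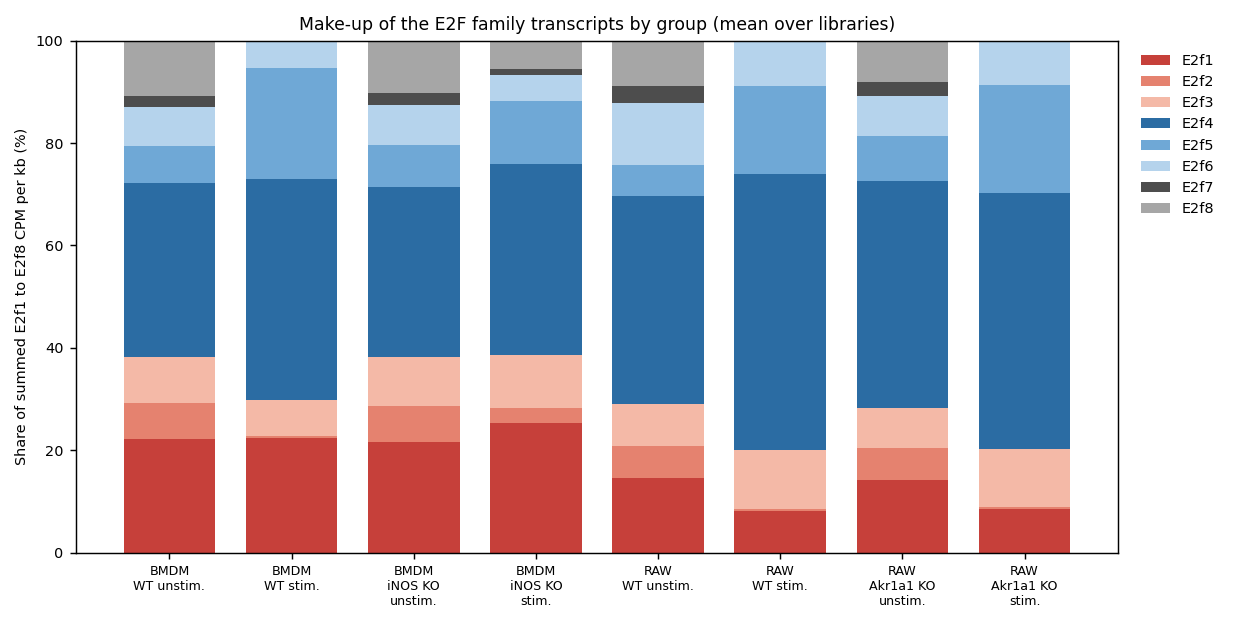
Share of the summed CPM per kilobase of E2f1 to E2f8 (vertical axis, percent, from 0) taken by each of these genes, stacked, in each of the 8 groups. Bars are group means over libraries. E2f7 and E2f8 together took 12.8% in unstimulated and 0.294% in stimulated wildtype BMDMs, and 6.78% in stimulated iNOS KO BMDMs.

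The genes that work with the family were counted from lists by role, comparing stimulated iNOS KO with stimulated wildtype BMDMs. Both DP partners were higher without iNOS. Tfdp1 was at 234, 221 and 233 CPM in unstimulated wildtype, 35.9, 37.2 and 36.1 CPM in stimulated wildtype and 143, 152 and 148 CPM in stimulated iNOS KO cells, a 4.06-fold difference between the stimulated genotypes (adjusted p = 1.04e-13). Tfdp2 differed 2.76-fold (adjusted p = 3.07e-07). Tfdp1 was thus left at 15.9% of its unstimulated level in wildtype and at 63.6% in iNOS KO cells, and the interaction passed for both genes (log2 2.00, adjusted p = 1.17e-11, and 1.09, adjusted p = 0.000196). Tfdp1 held the motif TTTCGCGC in its promoter. Tfdp2 held none of those searched, but its windows lay inside 6 and 10 of its 13 coding transcripts.

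Of the 30 E2F target genes of the G1/S transition, 29 were higher in stimulated iNOS KO cells, where 24.2% of all genes tested were higher. Their median log2 difference was 3.90 beside -0.04 for all genes tested. Ccna2 (cyclin A2, log2 7.07), Rrm2 (a ribonucleotide reductase subunit, log2 6.24) and Mcm10 (a replication initiation factor, log2 5.74) differed most, each with an adjusted p of at most 9.99e-15. Pcna, the sliding clamp of DNA polymerase, was the exception (log2 -0.06, adjusted p = 0.473). Of the 15 G2/M genes all were higher, with a median of 5.01: Ube2c (an anaphase ubiquitin-conjugating enzyme) differed by 7.79 and Plk1 (a mitotic kinase) by 6.12, while Cenpf (a kinetochore protein) had 0 counts in the 3 stimulated wildtype libraries and was at least 320-fold higher in iNOS KO cells, taking 3 counts over the group as the floor. In unstimulated cells the medians of the G1/S and G2/M lists for the same genotype comparison were -0.01 and -0.04. Mitotic genes fell in iNOS KO cells too upon stimulation, all 15 of 15 with a median of -1.02 (wildtype -5.73), whereas of the 30 G1/S targets 17 fell, 5 rose and 8 did not pass, with a median of -0.24 (wildtype -4.22, with 28 lower and Pcna higher). Of all genes tested, 24.6% fell and 27.3% rose upon stimulation in iNOS KO cells, and 28.5% fell and 32.4% rose in wildtype cells.

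Other lists of cell cycle regulators were counted in the same comparison, where 24.2% of all genes tested were higher and 24.2% lower. Of 8 G1 cyclins and kinases, 7 were higher without iNOS after stimulation, led by the E cyclins Ccne2 (log2 3.97) and Ccne1 (2.78) and by Ccnd2 (2.25), which encodes cyclin D2 and was at only 1.08 CPM in stimulated wildtype cells. Of 7 genes of the MuvB core with B-Myb and FoxM1, which drive mitotic genes, 6 were higher, led by Mybl2 (log2 4.81), Foxm1 (2.48) and Lin9 (1.14). Of the CDK inhibitors 4 of 7 were tested. Cdkn2c (p18) was higher (log2 1.55, adjusted p = 2.41e-09), and Cdkn1a (p21) and Cdkn2d (p19) were lower (log2 -0.48, adjusted p = 0.000121, and -0.35, adjusted p = 0.0229). The libraries of the stimulated genotypes overlapped for Cdkn2d but not for Cdkn1a or Cdkn2c. Cdkn1a rose in both genotypes upon stimulation, from 161 ± 10.3 to 742 ± 51.8 CPM in wildtype and from 191 ± 15.6 to 531 ± 55.2 CPM without iNOS (SD, n = 3 each). Of the 6 Polycomb partners of E2F6, Pcgf6 (log2 0.54) and L3mbtl2 (0.46) were higher, Mga (-0.66) and Ring1 (-0.55) were lower, and the other 2 did not pass. With 2 of 6 in each direction, this list lay near the shares of all genes.

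The genes whose pattern over the 12 BMDM libraries was most like that of 3 of the members were found among 10668 expressed protein-coding genes, by the smallest root mean square difference in centred log2 CPM. For E2f1 these were Cs (0.0498), Prep (0.0593) and Tbcd (0.0599). Cs, which encodes citrate synthase, was at 51.3% of its unstimulated wildtype level in stimulated wildtype and at 94.1% in stimulated iNOS KO cells. For E2f8 they were Knstrn (0.176), Troap (0.256) and Fancd2 (0.265), where Knstrn, a kinetochore gene, was at 1.27% and 55%. For Rbl1 they were Ivns1abp (0.0535), Hnrnpa1 (0.0709) and Dhx9 (0.0743), where Hnrnpa1, an RNA-binding protein gene, was at 28.6% and 56.1%. In stimulated iNOS KO libraries these genes spread widely, at 76.6 ± 19.6, 216 ± 43.5 and 175 ± 43.9 CPM (SD, n = 3). Rbl1 did so too, at 43.3 ± 11.25 CPM, and the part of single libraries in this likeness was not tested.

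Markers of other cells shifted with stimulation in the BMDM libraries. The 8 neutrophil markers summed to 0.433 to 1.17 CPM in unstimulated libraries, 35.5 to 62.1 CPM in stimulated wildtype and 38.5 to 44.3 CPM in stimulated iNOS KO libraries, with 2 of 8 reaching 1 CPM and Ly6g and Ltf at 0. Most of this was S100a8, a calcium-binding alarmin, with means of 49.3 and 39.5 CPM in the stimulated genotypes. The 7 fibroblast markers summed to at most 0.293 CPM unstimulated, 3.65 to 4.92 CPM in stimulated wildtype and 11.3 to 16.6 CPM in stimulated iNOS KO libraries, with 3 of 7 reaching 1 CPM and Col3a1 and Thy1 at 0. The macrophage markers summed to 7770 to 8720 CPM in stimulated wildtype and 12300 to 13000 CPM in stimulated iNOS KO libraries, and to 7850 to 8200 and 5490 to 5870 CPM before stimulation. The part of these shifts in the E2F results was not tested.

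In RAW264.7 cells stimulation lowered 9 of the 10 genes in wildtype cells, where 19.2% of 19569 genes fell, and 7 of the 10 in the libraries labelled Akr1a1 KO, where 19.4% fell. Leaving out both libraries whose titles name stimulated cells left a single unstimulated library per genotype, so calls are not counted for that fit. The wildtype log2 values of E2f3, E2f4 and Rb1 were then -0.484, -0.465 and -0.474. These 3 calls thus rest on the libraries with conflicting titles. The spread between these 2 libraries per group was wider than in BMDMs, with a common dispersion of 0.0522 against 0.00845. The study's methods name independent clonal replicates in this experiment, and the calls above did not pair libraries by letter. Neutrophil markers moved here as well, from at most 0.666 CPM in sum when unstimulated to 121 to 145 CPM in wildtype and 248 to 420 CPM in the libraries labelled Akr1a1 KO, with 2 of 8 reaching 1 CPM, and their part was not tested.

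**Figure D4:**
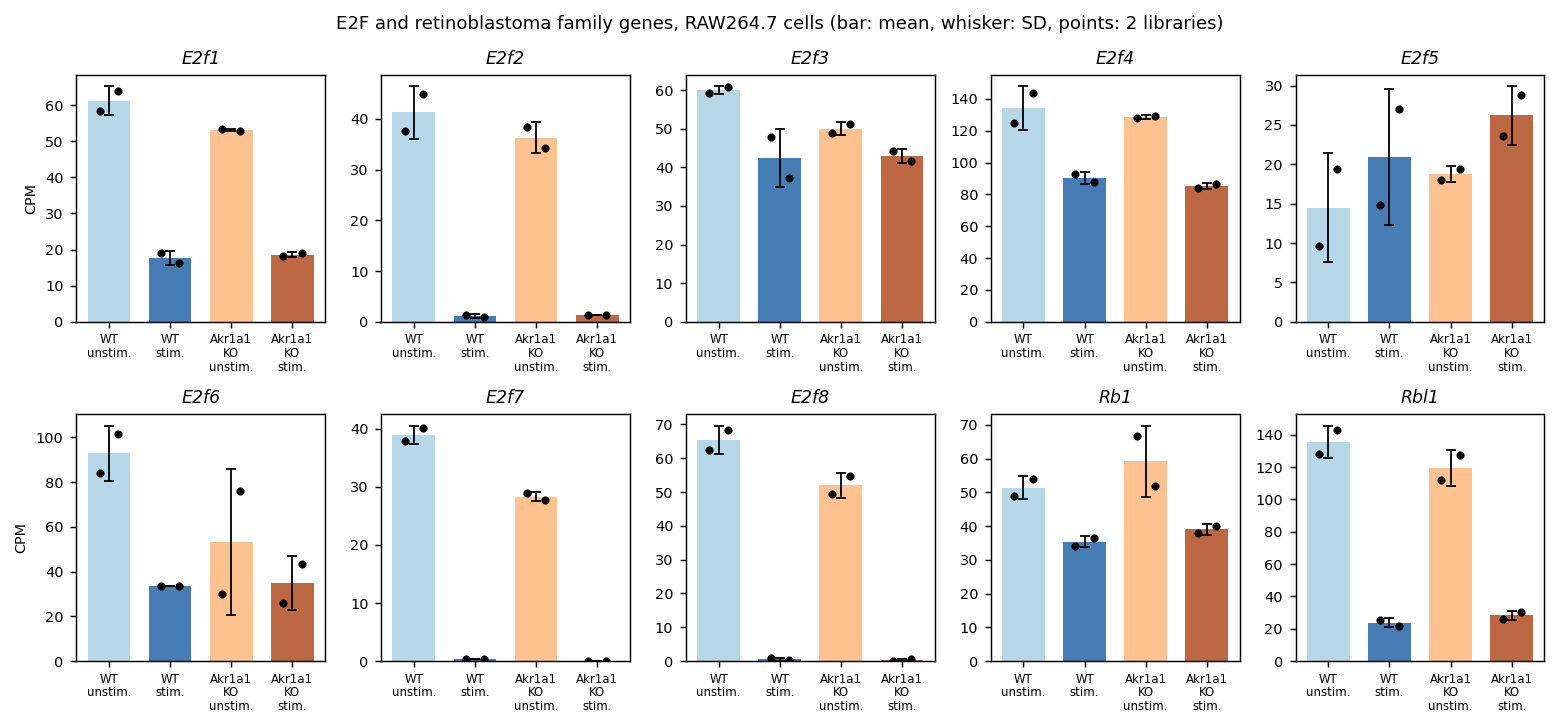
CPM of the 10 genes in the 8 RAW264.7 libraries (vertical axes, from 0, each on its own scale). Bars are means, whiskers the SD and points the 2 libraries of each group; E2f2, E2f7 and E2f8 were near 0 after stimulation in both genotypes, and E2f5 and E2f6 showed the widest spread between libraries.

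Among the activators E2f1 went from 58.4 and 64 CPM to 19 and 16.4 CPM in wildtype and from 53.3 and 52.8 CPM to 18.1 and 19.1 CPM in cells labelled Akr1a1 KO, 28.8% and 35% of the unstimulated level (adjusted p = 3.26e-05 and 6.97e-05). E2f2 went from 37.6 and 44.9 CPM to 1.41 and 0.901 CPM, and from 38.4 and 34.2 CPM to 1.34 and 1.38 CPM (2.77% and 3.77%). In both genes the stimulated libraries of both genotypes overlapped or lay side by side, far below the unstimulated ones. E2f3 changed less, from 59.3 and 60.7 CPM to 47.8 and 37.2 CPM (adjusted p = 0.0251, passing in 4 of 8 fits without 1 library) and from 48.9 and 51.2 CPM to 44.2 and 41.6 CPM (adjusted p = 0.262).

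E2f4 fell from 125 and 144 CPM to 92.9 and 87.8 CPM in wildtype and from 128 and 129 CPM to 84 and 86.6 CPM in cells labelled Akr1a1 KO (adjusted p = 0.00506 and 0.00412). E2f5 was at 9.59 and 19.4 CPM unstimulated and 14.9 and 27.1 CPM stimulated in wildtype cells, so that the libraries overlapped (log2 0.52, 95% interval -0.31 to 1.35, adjusted p = 0.296), and at 18.1 and 19.5 CPM against 23.6 and 28.8 CPM in the others (log2 0.48, -0.35 to 1.31, adjusted p = 0.332). Within each letter E2f5 was higher after stimulation. The study's methods name independent clonal replicates in each group, so a letter may stand for a clone. With the letter as a block of its own in each genotype, both E2f5 comparisons passed the edgeR test (log2 0.55, adjusted p = 0.0284, and 0.48, adjusted p = 0.0492). E2f6 fell in wildtype cells from 84.2 and 102 CPM to 33.5 and 33.6 CPM (adjusted p = 0.0194, passing in 5 of 8 fits without 1 library). In the libraries labelled Akr1a1 KO the unstimulated E2f6 values were 30.2 CPM in replicate A and 76.2 CPM in replicate B, on either side of the stimulated 26.1 and 43.3 CPM, and the comparison did not pass (log2 -0.62, adjusted p = 0.248). It passed without unstimulated replicate A (log2 -1.13, adjusted p = 0.0213) and turned to 0.20 without unstimulated replicate B. Both letters were lower after stimulation, and with the block within each genotype it passed (log2 -0.52, adjusted p = 0.0262).

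The atypical repressors were close to 0 after stimulation in RAW264.7 cells of both genotypes. E2f7 went from 37.9 and 40.1 CPM to 0.298 and 0.338 CPM (4 and 6 counts) in wildtype cells, 0.835% of the unstimulated level (adjusted p = 2.96e-06). In the libraries labelled Akr1a1 KO it went from 28.9 and 27.8 CPM to 0 in both, at least 292-fold lower with 3 counts over the group as the floor. E2f8 went from 62.4 and 68.4 CPM to 0.818 and 0.225 CPM (log2 -7.05, adjusted p = 1.22e-05) and from 49.4 and 54.7 CPM to 0.134 and 0.502 CPM (log2 -7.31, adjusted p = 1.26e-05). The size of the E2f8 fall moved with single libraries, to -8.08 or -6.26 in wildtype cells without stimulated replicate A or B, and to -6.69 or -8.52 in the others without stimulated replicate A or B.

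Rb1 fell in RAW264.7 cells, from 49 and 53.8 CPM to 34.2 and 36.5 CPM in wildtype (log2 -0.54, adjusted p = 0.0217) and from 66.7 and 51.7 CPM to 37.9 and 40.1 CPM in cells labelled Akr1a1 KO (log2 -0.60, adjusted p = 0.0135), although it passed in only 3 and 5 of the 8 fits without 1 library. In wildtype BMDMs the Rb1 value had the opposite sign, but the tables were analysed separately and that difference was not tested. Rbl1 fell from 128 and 143 CPM to 25.7 and 21.7 CPM and from 112 and 128 CPM to 26.1 and 30.3 CPM, 17.4% and 23.5% of the unstimulated level (adjusted p = 1.01e-05 and 2.32e-05). The G1/S targets and G2/M genes fell with them, 29 of 30 and 15 of 15 in each genotype, with medians of -4.43 and -6.19 in wildtype and -4.01 and -6.86 in the others. Of all genes tested, 19.2% fell in wildtype cells and 19.4% in cells labelled Akr1a1 KO. Tfdp1 was left at 22.9% and 23% (adjusted p = 1.76e-05 and 1.84e-05).

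Between unstimulated libraries labelled Akr1a1 KO and wildtype, 0 of the 10 genes passed the edgeR test, where 0.583% of all genes passed. The stimulated comparison and the interaction also gave 0 of 10, where 0.286% and 0.0204% of all genes passed. DESeq2 called 0 in each, and a count of 0 of 10 lies near these shares. At an unadjusted p below 0.05 there was 1 gene in each of the 3 comparisons, E2f7. Its unstimulated log2 difference was -0.46 (95% interval -0.85 to -0.08, adjusted p = 0.501), and after stimulation it was at 0 and 0 counts against 4 and 6, at least 3.27-fold lower (adjusted p = 0.0611). Unstimulated, both libraries labelled Akr1a1 KO lay below both wildtype ones for E2f1, E2f3, E2f6, E2f7, E2f8 and Rbl1, and the other genes overlapped. Stimulated, they lay below for E2f4 and E2f7 and above for Rb1 and Rbl1, and the other genes overlapped. The share of all genes separated in this way was not counted. With 2 libraries per group the intervals were wide for E2f5 and E2f6 (-0.47 to 1.19 and -1.69 to 0.09 unstimulated, -0.51 to 1.15 and -0.86 to 0.95 stimulated) and narrower for E2f1 (-0.51 to 0.09 and -0.24 to 0.39). The summed E2F level was 135 and 68.3 CPM per kilobase before and after stimulation in wildtype and 119 and 69.8 in cells labelled Akr1a1 KO, of which E2f4 to E2f6 made up 58.8% and 79.8%, and 61% and 79.7%.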

How the data were processed

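RNA-seq of 20 libraries was analysed from 2 deposited tables of gene-level read counts, 1 for each experiment, in which every value is a raw count. Per the study's methods and the submitters' notes, the authors removed adapter and low-quality reads, aligned the rest with STAR to mm10 and counted reads per gene; the poly-A libraries were made by a sequencing company, bases were called with CASAVA, and the counting tool and its strand setting are not given in the sources used here. The tables name no build and their coordinates differ from the GRCm38 annotation, so gene positions are given as the tables list them, and promoter sequences come from RefSeq on GRCm38.p6.

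Each table was fitted separately with edgeR 4.0.16 in R 4.3.3 (glmQLFit and glmQLFTest, TMM scaling, 1 mean per group) over all genes with at least 10 counts in total, 18691 genes in the iNOS and 19569 in the Akr1a1 experiment. P-values were adjusted by Benjamini-Hochberg over all genes tested, and an adjusted p below 0.05 was called. The quasi-likelihood test is two-sided. Standard errors were derived from the log2 fold change and the F statistic, and 95% intervals from them. CPM used TMM library sizes, and CPM per kilobase the gene length of the tables. On simulated counts with 4-fold changes in 200 genes, edgeR recovered 200 with 15 false calls among 18263 genes for the iNOS design and 167 with 11 false calls among 19011 genes for the Akr1a1 design. DESeq2 1.42.0, the study's own test, other filters, other scalings, a replicate block and leaving out each library were the alternatives. A group at 0 was given a floor of 3 counts over the group, which covers counting error only.

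The 10 genes, the role lists and the tests were chosen with earlier results of these data known. Besides the 10 genes, the text names Nos2 and Akr1a1, Rbl2, Tfdp1 and Tfdp2, up to 3 genes per role list with the largest increase and decrease in stimulated iNOS KO against stimulated wildtype cells, the 3 genes most like E2f1, E2f8 and Rbl1, and genes overlapping a member. Pcna, Mertk and the marker genes listed at 0 were named after their values were seen. Proteins were not analysed here, and 3 of the 10 genes (E2f4, E2f5 and Rb1) had no promoter entry.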

Additional observations from a re-analysis of the deposited data

Results flagged for a closer look

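In the iNOS experiment the response to stimulation differed between iNOS KO and wildtype BMDMs for 9 of the 10 genes and for both DP partners, by the edgeR test of the interaction with Benjamini-Hochberg adjustment. The log2 interaction, the response in iNOS KO minus that in wildtype cells, was 0.90 for E2f1 (adjusted p = 3.23e-05), 3.38 for E2f2 (4.69e-09) and 1.17 for E2f3 (2.04e-07) among the activators. It was 0.52 for E2f4 (0.00202) and 0.64 for E2f6 (0.00019). The atypical repressors had the largest values of the 10 genes, 5.91 for E2f7 (2.1e-10) and 5.12 for E2f8 (5.96e-12). Among the pocket proteins it was 0.92 for Rbl1 (0.000867) and -0.76 for Rb1 (0.0239), the value that 3 single libraries can undo. It was 2.00 for Tfdp1 (1.17e-11) and 1.09 for Tfdp2 (0.000196). No group held enough libraries for a test of single outlying samples, and the flags all come from the same 12 libraries. Without replicate B of stimulated iNOS KO cells, calls over all genes rose from 6617 to 7477 in the interaction. Between unstimulated genotypes they rose from 1117 to 2371, while the count among the 10 genes stayed at 0.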

How the results depend on the processing

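Of 1760 values of the 10 genes under alternatives, 1678 kept their direction and call, 41 lost the call, 10 gained it and 31 changed sign, none of the latter called in either setting; the causes were not tested. Requiring a log2 change beyond 1 as well left 6 of 10 calls upon stimulation in wildtype and 3 of 7 in iNOS KO BMDMs, 4 of 9 between the stimulated genotypes and 4 of 9 in the interaction. With no filter on counts, 1 gene was called instead of 0 in the libraries labelled Akr1a1 KO against wildtype, E2f6 unstimulated (adjusted p = 0.000497) and E2f7 stimulated (adjusted p = 0.00903). Calls over all genes rose as well in that setting. Unstimulated they went from 114 of 19569 genes tested to 846 of 27617, and stimulated from 56 to 1015. Leaving out 1 library gave 9 to 10, 5 to 7, 0, 8 to 9 and 8 to 10 calls in the 5 BMDM comparisons (stimulation in wildtype, in iNOS KO, genotype unstimulated, genotype stimulated, interaction) and 6 to 9, 6 to 7, 0, 0 and 0 in the same RAW264.7 comparisons. The replicate letters are shared by groups, and the labels do not say what a letter marks. For the Akr1a1 experiment the study's methods give 2 independent clonal replicates per group, so a letter may stand for a clone there. Over all groups the letters did not pair the samples. Deviations of same-letter libraries correlated from -0.517 to 0.497 in BMDMs and between -0.165 and 0.438 in the RAW264.7 libraries. The replicate block left 10, 6, 0, 9 and 9 calls in BMDMs and 9, 7, 0, 0 and 0 in RAW264.7 cells, and turned E2f6 between the stimulated RAW264.7 genotypes to -0.017. Within a genotype, same-letter unstimulated and stimulated libraries correlated at 0.438 in wildtype and 0.103 in the libraries labelled Akr1a1 KO in RAW264.7 cells, and from -0.258 to 0.0844 and 0.121 to 0.497 in wildtype and iNOS KO BMDMs. A replicate block within each RAW264.7 genotype, added after seeing the data, gave 10 and 9 calls upon stimulation, against 9 and 7, and 0 in the interaction; it cannot test the genotypes, and no such block was fitted in BMDMs. Without both libraries of conflicting titles, E2f6 upon stimulation in cells labelled Akr1a1 KO was 0.20, and E2f2 and E2f4 between unstimulated genotypes were 0.029 and 0.035. In BMDMs, values whose sign changed without 1 library ran from -0.142 to 0.024 (E2f1) and -0.333 to 0.056 (Rb1) upon stimulation in iNOS KO cells, and between unstimulated genotypes from -0.105 to 0.029 (E2f1), -0.083 to 0.017 (E2f2), -0.123 to 0.008 (E2f4) and -0.049 to 0.041 (E2f6). In RAW264.7 cells they ran from -1.13 to 0.20 for E2f6 upon stimulation in cells labelled Akr1a1 KO; from -0.163 to 0.042 (E2f4) and -0.043 to 0.966 (E2f5) between unstimulated genotypes; from -0.043 to 0.156 (E2f1), -0.068 to 0.566 (E2f2), -0.17 to 0.18 (E2f3), -0.075 to 0.801 (E2f5), -0.37 to 0.33 (E2f6) and -1.83 to 0.49 (E2f8) between stimulated genotypes; and from -0.13 to 0.08 (E2f4), -0.65 to 0.41 (E2f5), -1.54 to 0.78 (E2f8) and -0.23 to 0.14 (Rb1) in the interaction. Where a fit left 1 library in a group, that library was assumed to vary like the others. Stimulated E2f7 had 6 counts in wildtype BMDMs, 10 in wildtype RAW264.7 cells and 0 in cells labelled Akr1a1 KO. The depth therefore limits the size of its fall, and only a bound is given where the group is at 0.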
